A study of Mus musculus with 4 samples.

Results

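8 genes for transcription factors of the endoderm and the liver lineage are described here, Sox17, Gata4, Gata6, Foxa1, Foxa2, Foxa3, Hnf4a and Cebpa. They were chosen by name, and all 8 were found among the 21938 protein-coding genes of the annotation. The data are 4 lists of transcription start regions from mouse embryos at stage E14.5, with 2 libraries from liver and 2 from yolk sac. The start regions, called peaks below, carry the name dREG, a classifier that finds promoters and active distal sites in PRO-seq reads, which mark RNA polymerases engaged in transcription. Every library came from tissue of 6 pooled embryos, so no value belongs to a single animal. Both tissues shared 1 cross: C57BL/6J mothers and fathers of mixed C57BL/6J and CAST/EiJ background, selected to carry CAST/EiJ alleles of Dlk1/Gtl2 (chromosome 12). The sample labels write the background as mixed C57BL/6h and CAST/EiJ. No treatment or mutation was applied, and by their labels the groups differ by tissue only. Whole tissues were used without sorting, and a smaller number of cells of a type cannot be told apart from less transcription per cell.

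These factors act early and in layers. SOX17 and the GATA factors GATA4 and GATA6 are required in the endoderm, and GATA4 and GATA6 are also present in mesothelium and mesenchyme. FOXA1, FOXA2 and FOXA3 are forkhead proteins that can bind sites in closed chromatin, and HNF4A and C/EBPα then sustain the expression of liver products such as albumin and apolipoproteins. The visceral endoderm of the yolk sac uses many of the same factors for absorption and secretion. Hnf4a has an upstream promoter, P2, and a downstream promoter, P1, the latter being the main one in adult hepatocytes.

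The liver lists held 24863 and 24333 peaks and the yolk sac lists 50525 and 43055 peaks. Read depth is unknown, so a longer list may hold more weak sites. A score without unit is given per peak by the authors, and it was read here only as a percentile within its own list. With 2 libraries a tissue, the smallest exact permutation p is 0.333, and differences are therefore set against the spread between replicates. The tissue labels were checked with marker genes, by the presence of a promoter peak, in the order liver replicates 1 and 2, then yolk sac replicates 1 and 2. Of 8 erythroid markers 8, 8, 3 and 3 were called, and Alas2, Epb42, Gata1, Klf1 and Slc4a1 had no promoter peak in either yolk sac list. Of 8 visceral endoderm markers 6, 4, 8 and 8 were called, and Amn and Cubn had none in either liver list. Hepatoblast markers were called at 8, 7, 8 and 8 of the 9 in the annotation, and so did not separate the tissues. Among them, Fgb had no promoter peak in either liver list, and Afp had none in that of liver replicate 2. Cps1 had none in either yolk sac list. The liver lists had fewer calls for endothelial markers (5, 6, 8 and 8 of 8) and for mesenchymal and mesothelial markers (5, 7, 11 and 11 of 11). Myeloid markers gave 5, 4, 6 and 5 of 8. The part of these other cell types in the values below was not tested.

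RefSeq promoter sequences on GRCm38.p6, the build of the peak lists, were found for 5 of the 8 genes. They are shown because the promoters below were called in every library, and because the paralogous Foxa genes and the 2 Hnf4a promoters can be compared. Each runs 5′ to 3′ on the strand of the gene, and capitals mark letters that match a searched motif. Each ends before the RefSeq start, or before annotated untranslated or coding bases where these begin earlier. The Hnf4a P1 window lies downstream of a further annotated start at 163546817. The Foxa1 window likewise lies downstream of one at 57546916. Hnf4a P2 lies at chr2:163506607-163506807 on the plus strand, and Hnf4a P1 at chr2:163546905-163547154 on the plus strand. Foxa1 lies at chr12:57546122-57546361, the upstream start of Foxa2 at chr2:148046970-148047219 and Foxa3 at chr7:19023540-19023789, all on the minus strand. Cebpa lies at chr7:35119043-35119292 on the plus strand.
Hnf4a P2: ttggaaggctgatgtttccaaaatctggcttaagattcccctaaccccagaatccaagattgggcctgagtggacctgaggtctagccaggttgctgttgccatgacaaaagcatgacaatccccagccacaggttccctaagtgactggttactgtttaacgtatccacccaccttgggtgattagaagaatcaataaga
Hnf4a P1: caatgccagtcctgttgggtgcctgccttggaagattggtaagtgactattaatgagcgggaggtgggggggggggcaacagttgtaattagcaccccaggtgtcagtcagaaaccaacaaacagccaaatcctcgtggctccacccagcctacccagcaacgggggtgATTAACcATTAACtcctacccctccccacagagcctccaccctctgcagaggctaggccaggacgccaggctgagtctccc
Foxa1: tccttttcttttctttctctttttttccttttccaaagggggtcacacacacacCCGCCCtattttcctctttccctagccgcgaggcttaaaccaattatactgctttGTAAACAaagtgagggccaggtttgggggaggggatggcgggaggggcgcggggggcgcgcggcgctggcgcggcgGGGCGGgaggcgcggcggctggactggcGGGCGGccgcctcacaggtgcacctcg
Foxa2: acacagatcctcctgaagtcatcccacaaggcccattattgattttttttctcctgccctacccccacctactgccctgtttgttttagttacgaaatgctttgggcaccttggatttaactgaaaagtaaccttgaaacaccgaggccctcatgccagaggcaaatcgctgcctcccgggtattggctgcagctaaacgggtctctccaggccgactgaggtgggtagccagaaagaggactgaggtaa
Foxa3: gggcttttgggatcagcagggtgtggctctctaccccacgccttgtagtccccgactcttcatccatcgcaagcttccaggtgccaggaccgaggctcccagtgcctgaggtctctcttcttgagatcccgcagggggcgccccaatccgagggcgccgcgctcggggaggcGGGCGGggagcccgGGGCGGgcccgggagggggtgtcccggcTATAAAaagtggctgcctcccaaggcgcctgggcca
Cebpa: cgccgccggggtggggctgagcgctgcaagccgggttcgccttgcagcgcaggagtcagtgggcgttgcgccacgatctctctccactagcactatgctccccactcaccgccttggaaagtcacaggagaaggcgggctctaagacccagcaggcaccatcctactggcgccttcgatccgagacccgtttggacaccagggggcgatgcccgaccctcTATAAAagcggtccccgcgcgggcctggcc

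The searched letters, on both strands, were GATAAG for GATA factors, TGTTTAC for forkhead factors, CAAAGTC for HNF4, GTTAAT for HNF1, TTGCNNAA for C/EBP, TATAAA for the TATA box and GGGCGG for Sp1. None of the matches printed here overlapped another. Hnf4a P1 held the HNF1 letters at 2 neighbouring places, starting 81 and 74 bases before the RefSeq start, and 6.44% of all 32817 promoters of 250 bases held them at least once. Foxa1 held the forkhead letters 141 bases before its start, against 3.16% of all promoters. Cebpa and Foxa3 had TATA letters 30 and 36 bases before their starts, against 12.4% of all promoters. Sp1 letters, held by 32.7% of all promoters, occurred 3 times in the Foxa1 window and 2 times in the Foxa3 window. The P2 window of Hnf4a and the upstream Foxa2 window held none of the 7. The P2 and Foxa1 windows are 201 and 240 bases long, since annotated untranslated or coding bases were left out, and the others 250. At the downstream Foxa2 starts, whose windows are not printed, HNF1 letters and TATA letters were found at 1 and Sp1 letters at both. The ratio of observed to expected CpG was 0.0892 at Hnf4a P2 and 0.193 at P1, below the median of 0.373 over all promoters. It was 0.906 at Foxa1, 0.801 at Cebpa, 0.610 at Foxa3 and 0.376 at the upstream Foxa2 start. At the downstream Foxa2 starts it was 0.730 and 0.732.

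All 8 genes had a promoter peak, meaning a peak within 500 bp of an annotated start, in all 4 libraries. No gene was called in 1 tissue only. Over all protein-coding genes, 53.8% were called in all 4 libraries, 1.01% in both liver libraries only and 5.26% in both yolk sac libraries only. When only the higher-scoring 50% of peaks was kept, the lists differed: all 8 genes kept a promoter peak in both yolk sac lists, 4 kept one in liver replicate 1 and 3 in liver replicate 2. Sox17, Gata6, Foxa1 and Foxa2 had none in either liver list, and Hnf4a had none in that of replicate 2. With lists cut to the same length of 24333 peaks, all 8 genes were again called in all 4 libraries, as were 10256 of all 21938 protein-coding genes.

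Several of these genes have more than 1 promoter in the annotation. Starts of a gene that lay at most 500 bp from the next were joined, which gave 20 start clusters, and 6 genes had more than 1. The liver libraries called 16 and 16 of the clusters and the yolk sac libraries 18 and 17. Of the 20, every library called 15, no library called 2, and 3 showed other combinations, and no cluster was called in both libraries of 1 tissue only. These calls depended on the settings. At equal list length 3 clusters were liver-only (2 of Gata4, and P1 of Hnf4a) and the yolk sac minus liver difference in called clusters was -2, against 1.5 in full lists. Among the higher-scoring 50% of peaks 9 clusters were yolk-sac-only, and a window of 250 bp gave 1 of each kind. Over the 52546 start clusters of protein-coding genes 27.3% were called in all 4 libraries. Another 1.22% were called in both liver libraries only and 5.0% in both yolk sac libraries only. Those shares are for full lists, and shares at the other settings were not computed. Because 1 peak can reach 2 clusters, calls at neighbouring clusters are not independent.

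Hnf4a (chromosome 2, 163506808 to 163572910, plus strand) was called at P2 and at P1 in all 4 full lists. In lists of equal length P1 became liver-only, and P2 was no longer called in every library. At P2 the peak was 802 and 552 bp wide in liver and 952 and 1102 bp in yolk sac. Its score percentile was 56.5 and 37.9 in liver, against 86.5 and 41.5 for the yolk sac replicates. At P1 the widths were 1102 and 1102 bp in liver and 1502 and 902 bp in yolk sac, and the tissues overlapped. Percentiles at P1 were 35.1 and 25.7 in liver and 33.3 and 24.2 in yolk sac. In each of the 4 lists the P2 peak thus scored above the P1 peak. An internal start downstream of P1, at 163550083, stood apart. It had peaks of 1602 and 1702 bp at the 56.2 and 72.4 percentiles in yolk sac, a peak of 102 bp at the 8.4 percentile in liver replicate 1, and none in liver replicate 2. In both yolk sac lists this internal peak scored above that at P1. Both liver lists had a further narrow peak upstream of this start and beyond 500 bp from it, within the interval that the yolk sac peak covered.

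Gata4 (chromosome 14, 63198922 to 63271692, minus strand) also had separate promoters. Its main start, at 63245271, had peaks at the 90.0 and 84.9 percentiles in liver and at 57.9 and 67.6 in yolk sac. These peaks were 1702 and 1952 bp wide in liver and 1602 and 1552 bp in yolk sac. The upstream starts at 63271124 and 63271692 were called in all 4 libraries. The peak of liver replicate 1 (63270551 to 63271802) covered both starts and overlapped both yolk sac peaks. The peak of liver replicate 2 (63270851 to 63271202) did not overlap those of yolk sac (63271451 to 63271852 and 63271451 to 63271752). With a window of 250 bp the start at 63271124 was liver-only, and in equal-length lists both starts were. The peaks there had percentiles of 29.7 and 20.9 in liver, against 12.3 and 18.6 for yolk sac. The start at 63213607, within the gene, had no peak in any list. In every list the main start was therefore the higher one.

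Sox17 (chromosome 1, 4490931 to 4497354, minus strand) had a main group of starts from 4496330 to 4497354, called in all 4 libraries. The peak there was 1152 and 1152 bp wide in liver and 2152 and 1902 bp in yolk sac, so that both yolk sac peaks were wider than both liver peaks. Its percentiles were 29.2 and 20.2 in liver and 80.1 and 77.4 in yolk sac. A second group, at 4493604 and 4493735, had a peak in liver replicate 2 and in both yolk sac libraries but none in liver replicate 1. The main peak of Sox17 also lay at starts of the noncoding gene Gm37587, and dREG peaks carry no strand. The same holds for Gata6 with 1010001N08Rik, for Foxa3 with Sympk and for Cebpa with Gm45091, and at these 4 genes the peak cannot be given to 1 gene.

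Promoter peaks were wider in yolk sac at most of the 8 genes. The widest promoter peak per gene averaged 1971 and 1746 bp in the liver libraries and 3246 and 2902 bp in the yolk sac libraries. Liver averaged 1858 ± 159 bp and yolk sac 3074 ± 243 bp (SD, n = 2), a ratio of 1.65 with no overlap of the replicates (exact permutation p = 0.333). Over all 11805 protein-coding genes called in all 4 libraries, the same means were 1745 ± 101 and 1888 ± 154 bp (SD, n = 2), and there the tissues overlapped. Both yolk sac peaks were wider than both liver peaks at 6 of the 8 genes, where 35.6% of those 11805 genes showed this. Both liver peaks were wider at 1 gene, Gata4, against 20.7%. At Foxa3 the tissues overlapped.

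Gata6 (chromosome 18, 11052064 to 11085635, plus strand) had the largest difference of the 8. Its promoter peak was 2252 and 1652 bp wide in liver and 6852 and 6752 bp in yolk sac, a 3.48-fold ratio of means. Both liver lists had a distinct peak upstream of the promoter peak, and the yolk sac peak reached across both places. Foxa2 (chromosome 2, 148042877 to 148046969, minus strand) had peaks of 1552 and 1602 bp in liver and 3302 and 2902 bp in yolk sac. The ratio of means at Foxa2 was 1.97. In all 4 lists 1 peak reached both of its start clusters. Cebpa (chromosome 7, 35119293 to 35121928, plus strand) encodes a leucine zipper factor of hepatocytes and also of myeloid cells. Its peak was broad in every library, with 3102 and 2802 bp in liver and 4502 and 3502 bp in yolk sac, and the tissues did not overlap. Foxa1 (chromosome 12, 57540628 to 57546916, minus strand) had narrower peaks of 1602 and 1502 bp in liver and 1902 and 1702 bp in yolk sac. Foxa3 (chromosome 7, 19013284 to 19023538, minus strand) had 3302 and 2202 bp in liver and 2902 and 3202 bp in yolk sac. At Hnf4a the widest peak was at P1 in liver and at the internal start in yolk sac, and at Sox17 the widest peak of yolk sac replicate 1 was at the internal starts, so these widths do not compare the same start. Without yolk sac replicate 1 the difference in width was 750 bp at Sox17 (1450 bp with it), 550 bp at Cebpa (1050 bp) and 150 bp at Foxa1 (250 bp), and without liver replicate 2 it was -125 bp at Gata4 (-250 bp).

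**Figure D1:**
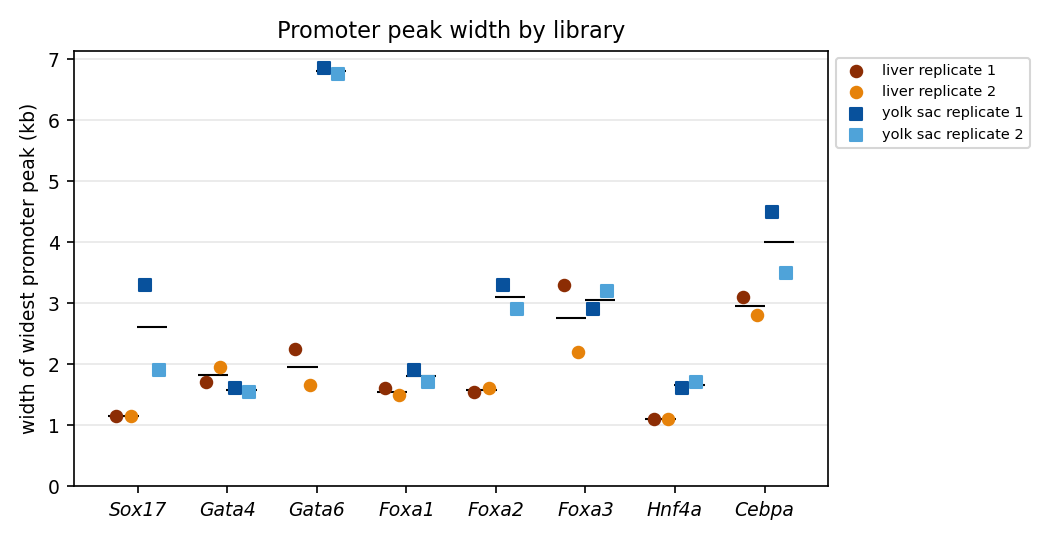
Width in kb (vertical axis) of the widest promoter peak of each gene in each library (circles liver, squares yolk sac), with a bar at the mean of each tissue. Gata6 stands apart, with 6852 and 6752 bp in yolk sac, and only at Gata4 do both liver peaks lie above both yolk sac peaks.

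The order of the 8 genes by score also differed between the tissues. In both liver lists Gata4 ranked first and Cebpa second, followed by Foxa3. Gata4 stood at the 90.0 and 84.9 percentiles, Cebpa at 80.4 and 81.8, and Foxa3 at 65.1 and 60.7. In both yolk sac lists Foxa1 ranked first, at the 88.6 and 97.4 percentiles, Gata4 seventh and Cebpa last, at 53.4 and 55.2. The order of the other genes was less even. In liver, Sox17 was at 29.2 and 47.5, Gata6 at 36.4 and 39.7, Foxa1 at 40.8 and 41.7, Foxa2 at 39.7 and 38.9, and Hnf4a at 56.5 and 37.9. The Sox17 values came from the main starts in liver replicate 1 and the internal starts in replicate 2. At its main starts Sox17 stood at 29.2 and 20.2, below the other genes in both liver lists. In yolk sac, Hnf4a was at 86.5 and 72.4, Sox17 at 80.1 and 77.4, Foxa2 at 74.2 and 77.1, Gata6 at 63.8 and 71.6, and Foxa3 at 58.2 and 71.9. The Hnf4a values of yolk sac likewise came from P2 in replicate 1 and from the internal start in replicate 2. The median of the 8 was 48.6 and 44.6 in liver, against 69.0 and 72.1 for yolk sac. The 11805 genes called in all 4 libraries had medians of 68.5 and 68.7 in liver and 72.8 and 73.4 in yolk sac.

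Percentiles from lists of unequal length cannot be set against each other. As a second reading, the promoters were ranked again within the 24333 highest-scoring peaks of each list. This cut left the liver values nearly unchanged and lowered every yolk sac value of the 8 genes. Since read depth is unknown, it need not make the tissues comparable, and the differences below depend on the cut. Foxa1 then stood at 39.5 and 41.7 in liver and at 76.4 and 95.5 in yolk sac. Sox17 (27.6 and 47.5 against 58.8 and 60.1) and Foxa2 (38.4 and 38.9 against 46.4 and 59.5) were higher in both yolk sac lists as well, the 47.5 of Sox17 again being at its internal starts. Cebpa stood at 80.0 and 81.8 in liver and at 3.30 and 20.7 in yolk sac. Gata4 (89.8 and 84.9 against 12.5 and 42.6) and Foxa3 (64.4 and 60.7 against 13.2 and 50.2) were likewise higher in both liver lists. The tissues overlapped at Gata6 and Hnf4a. Of 10256 genes with a promoter peak in all 4 shortened lists, 12.9% were higher in both yolk sac lists and 52.3% in both liver lists, against 3 and 3 of the 8 genes here.

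**Figure D2:**
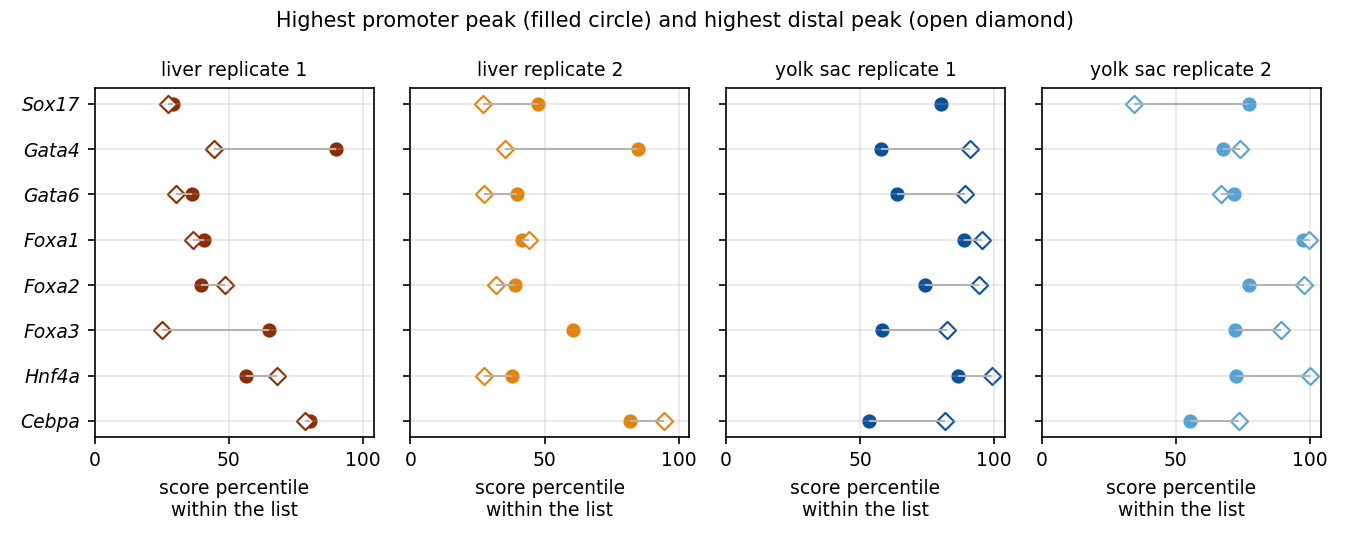
Score percentile within each list (horizontal axis, 1 panel per library) of the highest promoter peak (filled circle) and the highest distal peak in the gene or within 50 kb (open diamond, absent where there was none). In yolk sac replicate 1 the diamond lies to the right of the circle at 7 of the 8 genes, and in the liver panels at 2 and 2.

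Distal peaks, which overlapped no window of 500 bp around any annotated start, were counted in each gene and within 50 kb of it. Together the 8 genes had 25 and 24 such peaks in the liver libraries, against 56 and 55 for yolk sac. The means were 24.5 ± 0.707 and 55.5 ± 0.707 (SD, n = 2), a ratio of 2.27, and the replicates of each tissue lay 1 peak apart (exact permutation p = 0.333). Over all genes called in all 4 libraries liver averaged 1.76 ± 0.125 distal peaks per gene and yolk sac 3.79 ± 0.507 (SD, n = 2), a ratio of 2.16. The median of the 8 genes was 2 and 2.5 distal peaks for liver, against 7 and 7.5 for yolk sac. Over the genes called in all 4 it was 1 and 1, against 3 and 3. At 7 of the 8 genes both yolk sac counts exceeded both liver counts, where 42.1% of all protein-coding genes and 52.5% of those called in all 4 libraries showed this. At none of the 8 were both liver counts higher, against 5.32% and 6.58%. The direction over the 8 genes did not hold at equal list length. With 24333 peaks per list liver averaged 24.5 distal peaks and yolk sac 20.5. This cut removed peaks almost only from the yolk sac lists. In full, 66.5% and 62.7% of the yolk sac peaks were distal, against 47.2% and 44.2% of the liver peaks. Distal counts over all genes were not computed at equal length, so the change cannot be read as particular to these 8 genes.

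Hnf4a and Cebpa had the most distal peaks. Hnf4a had 7 and 5 in liver and 12 and 11 in yolk sac, and Cebpa 8 and 7 in liver and 12 and 12 in yolk sac. Gata4 had 3 and 4 in liver and 7 and 8 in yolk sac. Foxa1 had 2 and 3 against 7 and 8, and Foxa2 had 2 and 2 against 6 and 7. Gata6 had 1 and 2 in liver and 9 and 5 in yolk sac, where the yolk sac replicates differed most. Without yolk sac replicate 1 the difference at Gata6 was 3.5 peaks (5.5 with it). Foxa3 had 1 and 0 in liver and 3 and 3 in yolk sac. Sox17 was the exception, with 1 and 1 in liver and 0 and 1 in yolk sac. In yolk sac replicate 1 the place of that distal peak was covered by the broad peak at the internal starts of Sox17.

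**Figure D3:**
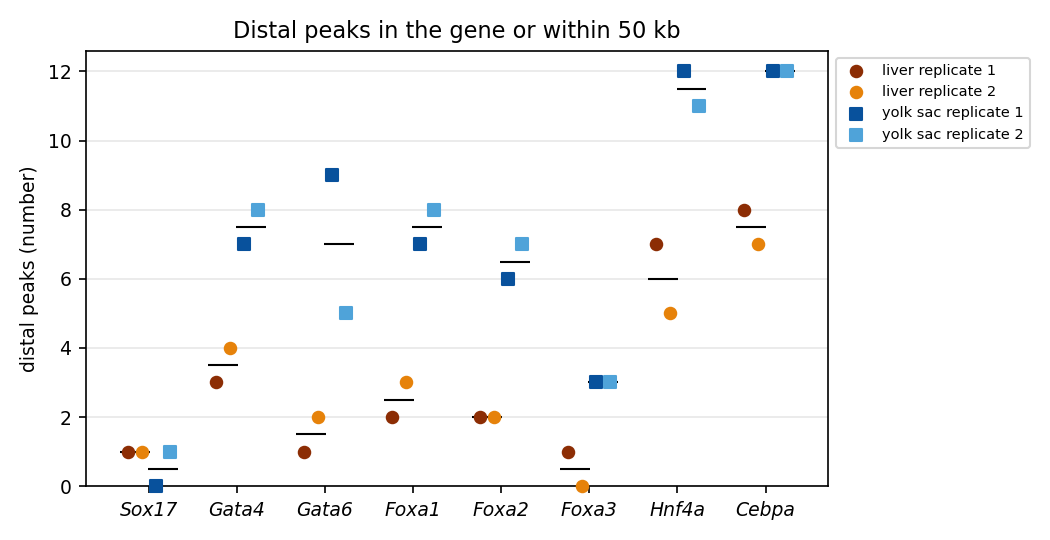
Number of distal peaks (vertical axis) in the gene or within 50 kb, per gene and library, with a bar at the mean of each tissue. At every gene except Sox17 the yolk sac counts lie above the liver counts.

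The peaks of all 4 lists were then merged where they overlapped. Around the 8 genes this gave 67 distal regions, of which 13 (19.4%) were called in all 4 libraries, 2 (2.99%) in both liver libraries only, 28 (41.8%) in both yolk sac libraries only and 24 in other combinations. Over all 42751 distal regions the shares were 8.92%, 8.01% and 40.3%. The share that was yolk-sac-only was thus near that of all distal regions. Cebpa alone held 6 of the 13 regions called in all 4 libraries. In equal-length lists 6 regions were liver-only and 8 yolk-sac-only. In the full lists both liver-only regions were at Gata4. Without liver replicate 1, or without liver replicate 2, 4 regions would be liver-only, since the rule then asks only for the remaining liver library.

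Gata4 held the liver-only regions. None of its 12 distal regions was called in all 4 libraries, as was so for the 10 of Gata6 and the 3 of Foxa3, where 8.92% of all distal regions were. Of the 12, 2 were liver-only, 7 yolk-sac-only and 3 were called in 1 library. The liver-only regions lay 2.6 kb upstream of the main start, in an intron of the longer transcripts (63247401 to 63248302), and 64.4 kb downstream of that start, beyond the gene (63180501 to 63181252). The former had percentiles of 35.8 and 30.6 in the liver lists, and the latter 44.5 and 33.5. The leading yolk-sac-only region lay in the same intron, 11 kb upstream of the main start (63255451 to 63257052), at the 91.0 and 73.8 percentiles. A second one lay 61.5 kb upstream of the main start (63305701 to 63307802), at 79.6 and 45.1. With a flank of 25 kb the mean number of distal peaks at Gata4 was 3.5 in both tissues.

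Hnf4a had 12 distal regions, with 3 called in all 4 libraries and 5 yolk-sac-only. The highest-scoring one lay 28.2 kb downstream of P1, past the end of the gene (163574851 to 163575952), and was called in all 4 libraries. It stood at the 68.0 and 26.2 percentiles in liver. In yolk sac it had the rank of 436 among 50525 peaks and of 12 among 43055 peaks, counted from the highest score. Another region called in all 4 libraries, in an intron 8.2 kb downstream of P1 (163554951 to 163555902), was at 27.9 and 18.2 in liver and at 87.8 and 59.2 in yolk sac. The leading yolk-sac-only region lay between P2 and P1, 31.3 kb upstream of P1 (163515451 to 163516302), at the 61.1 and 82.7 percentiles, within the antisense gene Hnf4aos. The next lay 48.5 kb downstream of P1 (163595001 to 163596452), at 54.7 and 52.7. Hnf4a had no liver-only region in the full lists and 1 at equal length.

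**Figure D4:**
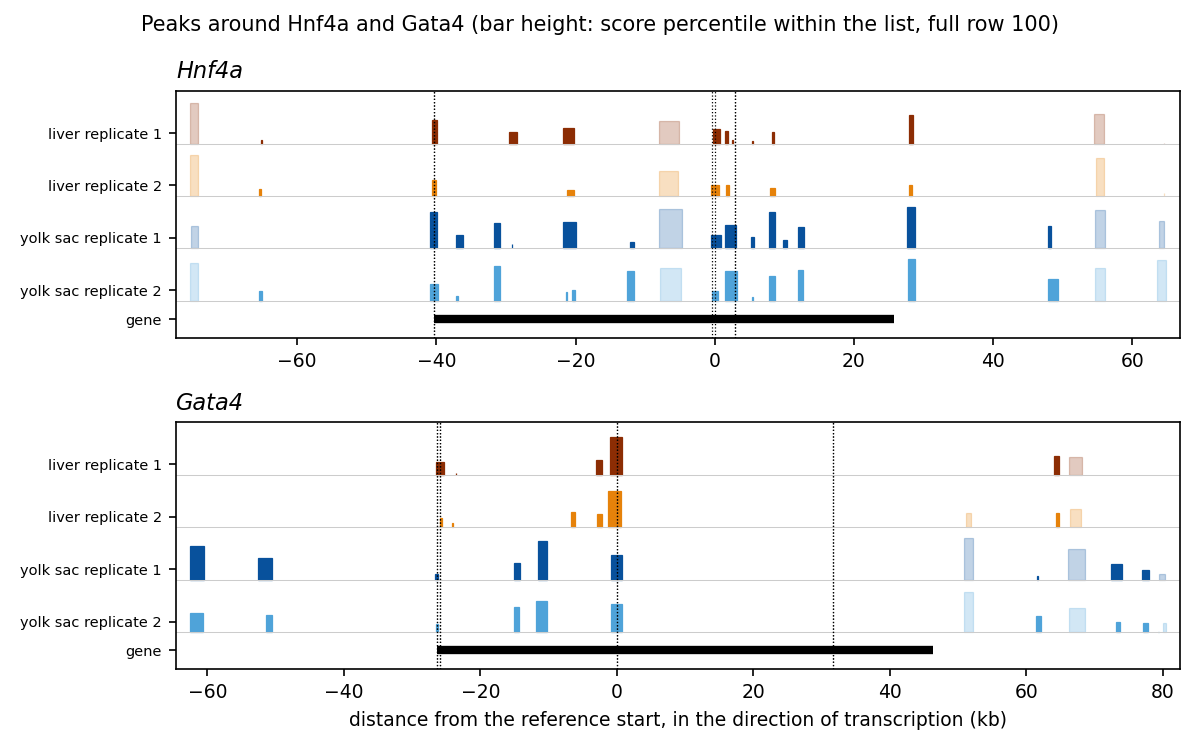
Peaks of the 4 libraries around Hnf4a and Gata4, by distance in kb from P1 of Hnf4a and from the main start of Gata4, where bar height is the score percentile within the list, pale bars are peaks at starts of other genes, dotted lines are starts of the gene and the black bar is the gene. The tall yolk sac bar 28.2 kb downstream of P1 is present but lower in liver, and the yolk sac bars 11 kb upstream of the Gata4 start have no liver counterpart.

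Each Foxa gene had its highest-scoring yolk sac distal peak downstream of its start. At Foxa1 it lay 40.7 kb downstream (57504851 to 57506052), outside annotated genes, at the 95.3 and 99.5 percentiles in yolk sac. In liver replicate 2 a peak at the 8.0 percentile overlapped it, and liver replicate 1 had none. The leading yolk-sac-only region of Foxa1 lay 17.7 kb downstream (57528051 to 57528802), at 62.7 and 81.1. A pair of regions 7 and 11.2 kb downstream was called in all 4 libraries. At Foxa2 the leading region lay 16.6 kb downstream (148029701 to 148031102), within the noncoding gene 9030622O22Rik, and was called in all 4 libraries. Its percentiles were 10.7 and 31.8 in liver, against 94.4 and 97.7 for yolk sac. The leading yolk-sac-only region of Foxa2 was 41.7 kb downstream (148004701 to 148005852), at 55.2 and 55.1. At Foxa3 a yolk-sac-only region overlapped the last exon, 11 kb downstream of the start (19011601 to 19013502), at the 82.3 and 89.3 percentiles. These 3 genes had no liver-only region in the full lists, and at equal length Foxa2 had 1.

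Gata6 had 10 distal regions, of which 4 were yolk-sac-only and none was called in all 4 libraries or in liver only. The leading one lay in an intron 25.7 kb downstream of the start (11077601 to 11078802), at the 89.0 and 54.9 percentiles. The next lay 17 kb upstream (11035101 to 11035902), within 1010001N08Rik, at 43.5 and 66.7. Sox17 had no distal region once the lists were merged, since its distal peaks joined the region of the internal starts.

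Cebpa differed from the other genes in how much the tissues shared. Its 14 distal regions included 6 called in every library and 3 yolk-sac-only ones, but no liver-only one. At equal list length 2 of its regions were liver-only and none yolk-sac-only. The region 30.9 kb downstream (35149701 to 35150802) was at the 78.2 and 94.6 percentiles in liver and at 54.8 and 73.7 in yolk sac. In both liver lists and in yolk sac replicate 2 it was the highest distal peak of the gene. In yolk sac replicate 1 the highest lay instead 9.5 kb downstream (35127651 to 35129952), where the percentiles were 32.1 and 5.80 in liver, against 81.7 and 67.5 for yolk sac. The leading yolk-sac-only region lay 34.3 kb upstream (35084651 to 35085402), at 51.5 and 39.4. No test was made of whether this sharing exceeds that at the other 7 genes.

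**Figure D5:**
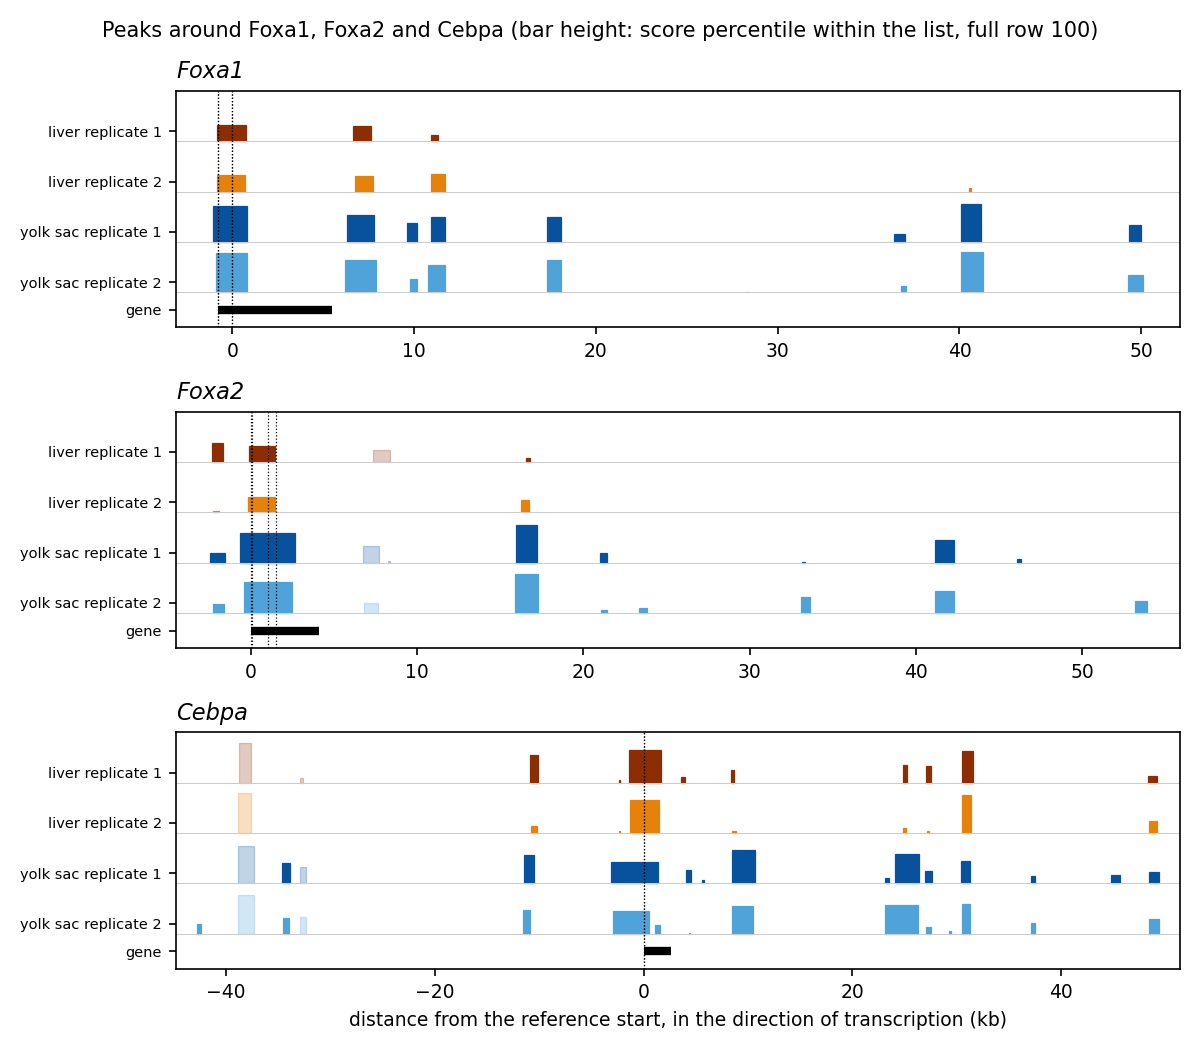
Peaks of the 4 libraries around Foxa1, Foxa2 and Cebpa, by distance in kb from the start in the direction of transcription, drawn as in the map of Hnf4a and Gata4. The tall yolk sac bars 40.7 kb downstream of Foxa1 and 16.6 kb downstream of Foxa2 are low or absent in liver, while Cebpa has bars at shared places in both tissues.

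The promoter and the distal peaks of a gene can be compared within 1 list, and this comparison was chosen after the values were seen. A distal peak scored above every promoter peak of the gene at 2 and 2 of the 8 genes in liver, against 7 and 6 for yolk sac. In liver these were Foxa2 and Hnf4a in replicate 1 and Foxa1 and Cebpa in replicate 2, so that no gene showed it in both liver libraries. In both yolk sac libraries Gata4, Foxa1, Foxa2, Foxa3, Hnf4a and Cebpa showed it. Of the genes called in all 4 libraries, 23.4% and 20.9% showed it in liver, against 42.3% and 36.4% for yolk sac. Sox17 showed it in none of the 4 lists. A gene with more distal peaks has more occasions to show it, and no adjustment was made for their number. In yolk sac the median number was 7 and 7.5 over the 8 genes, against 3 and 3 over the genes called in all 4. In liver it was 2 and 2.5, against 1 and 1.

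The wider network was read from a list of 40 other transcription factors of the liver, the endoderm and the same protein families. Of these, 23 had a promoter peak in all 4 libraries, 2 in both liver libraries only, 4 in both yolk sac libraries only, 6 in other combinations and 5 in none. Over all protein-coding genes the first 3 shares were 53.8%, 1.01% and 5.26%. Of the 17 hepatic factors 15 were called in all 4 libraries and none in 1 tissue only. Of the 14 endoderm factors and cofactors 5 were called in all 4, and Cdx2, Eomes, Lhx1 and Nr2f1 were yolk-sac-only. CDX2 and EOMES act in trophoblast and in the early embryo. Cdx2 was at the 66.5 and 70.3 percentiles of the yolk sac lists. Among family relatives, Gata1, the erythroid GATA factor, was liver-only at the 42.7 and 48.7 percentiles, and so was Hnf4g, a paralog of Hnf4a, at 7.50 and 32.2. The median number of distal peaks within 50 kb over the 40 factors was 2 and 1.5 in liver and 3 and 3 in yolk sac.

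Likeness to the 8 genes was measured over the 4 libraries as the mean absolute difference in the promoter's percentile, and factors among the closest 2 of the 40 are named. Gata4 was closest to Nr1h4, the bile acid receptor, at a difference of 3.2 percentile points, then to Cebpg at 11.2. Foxa2 (5.50), Gata6 (5.80) and Sox17 (7.50) were each closest to Nr5a2, a nuclear receptor of liver and endoderm, and Gata6 was next closest to Zfpm1 (12.8). Nr5a2 was also among the closest 2 for Foxa1, at 9.60. Foxa3 was closest to Hhex (5.40) and Cebpb (7.20), Cebpa to Ppara (6.90) and Nr1h4 (8.20), and Hnf4a to Zfpm1 (10.5). How rare such closeness was differed between the pairs. Of 11797 other genes called in all 4 libraries, 24 were at least as close to Gata4 as Nr1h4, but 757 were at least as close to Hnf4a as Zfpm1. For Nr5a2 the number was 91 at Foxa2, 115 at Gata6, 181 at Sox17 and 396 at Foxa1. It was 336 for Foxa3 with Hhex and 382 for Cebpa with Ppara.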

How the data were processed

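The 4 libraries are PRO-seq from pooled E14.5 tissue, and each has 1 deposited list of dREG peaks with a score per peak. The submitters' processing notes name Bowtie2, bedtools and the build mm10 (GRCm38), and the steps, versions and thresholds are not given in the sources used here. The deposited score was left as the authors made it and turned into percentiles within each list. No counts were used, so read depth is unknown and no interval covers it. Raw scores from different lists were not compared. Percentiles of the 4 lists were set side by side, and the unequal list lengths limit what differences between them mean.

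A gene was called where a peak lay within 500 bp of any of its GENCODE release 21 (mouse) starts. Distal peaks overlapped no such window of any gene and had their midpoint in the gene or within 50 kb. Peaks were merged by an overlap of at least 1 bp. The calling of promoter peaks and distal regions was tested on simulated lists. Tissues were compared by 2-sided exact permutation of 2 against 2 libraries (6 assignments). Without a statement that replicates are separate pools, p-values measure only the spread between libraries. The leading yolk-sac-only and liver-only regions, 2 per gene by their lower percentile, were named by rule, and regions called in all 4 libraries or scoring highest were named after their values were seen. The equal-length percentiles and the comparison of distal with promoter scores were also chosen after values were seen. Some of the closest factors are not reported here. The genes and lists were chosen with earlier results of these data known. Promoter letters come from RefSeq (GRCm38.p6). Python 3.11.15, numpy 2.4.6, pandas 2.3.3 and matplotlib 3.10.9 were used.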

Additional observations from a re-analysis of the deposited data

How the results depend on the processing

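With 2 libraries a tissue, no comparison can pass a threshold, and unknown depth limits what list length means. Directions over the 8 genes depended on list length. In equal-length lists the yolk sac minus liver difference was -2 for start clusters (1.5 in full lists) and -4 for distal peaks (31 in full lists), with Gata4 at -1, Hnf4a at -0.5 and Cebpa at -3.5. There 3 start clusters and 6 distal regions were liver-only and 8 distal regions yolk-sac-only. Among the higher-scoring 50% of peaks, the differences were 4.5 genes, 10 start clusters, 19.5 distal peaks and 366.667 bp of width, the last over only the 3 genes still called in all 4 libraries, whose own widths were as before. In those lists 4 genes, 9 start clusters and 15 distal regions were yolk-sac-only, and 0 distal regions liver-only. Shares of tissue-only calls over all genes, start clusters and distal regions were not computed for either kind of shortened list. The same holds for distal counts over all genes. A promoter window of 250 bp gave 1 liver-only and 1 yolk-sac-only start cluster, and 1000 bp gave 1 yolk-sac-only start cluster and 1 liver-only distal region. A flank of 25 kb gave a difference of 16 distal peaks and 17 yolk-sac-only regions, and 100 kb gave 46 and 5 liver-only regions. The cause of these shifts was not tested.

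Leaving out 1 library gave 0 to 1 yolk-sac-only start clusters, 2 to 4 liver-only regions and 29 to 38 yolk-sac-only regions. These counts could hardly fall, since tissue-only then asked for fewer calls or fewer absences. The differences were 30.5 to 31.5 distal peaks, 1 to 2 start clusters and 1043.75 to 1387.5 bp of width. At Foxa3 the width difference was -250 bp (without liver replicate 2) to 850 bp. Of the other values over the 8 genes, 44 counts stayed within 1.5 times and 34 differences within 1 SD between replicates. The 34 include the differences from the replicate block below, which could not change. For single genes 123 differences stayed within 1 SD, 17 moved more with the same sign, and 3 fell to 0: distal peaks of Gata6 and Foxa2 at equal list length and of Gata4 with the 25 kb flank. The labels give same-numbered libraries only a shared number. The replicate differences in promoter percentile correlated at r = -0.0106 between the tissues over 11805 genes. Such a correlation cannot show whether same-numbered libraries share embryos or a run. A replicate block cannot change the differences between tissue means, since every library has a same-numbered partner. They stayed at 0 genes, 1.5 start clusters, 1215.62 bp and 31 distal peaks. For the last 3 the sign-flip p was 0.5, the smallest exact value.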
